A study of Rattus norvegicus with 10 samples.

Results

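Growth arrest genes and regulators of the G1 phase were measured in the whole mammary gland of female SD rats, as MAS5 signals of 1-colour oligonucleotide arrays. The genes are Cdkn1b, Cdkn1a, Ccnd1, Ccng1, Btg2, Gadd45a, Pmepa1 and Bcl2l1. They were identified by probe sets whose single gene symbol in the platform annotation is one of these 8 names. This gave 13 of 15923 probe sets on the array, for 7 of the 8 genes, and Btg2 was not analysed here. The gland samples came from postnatal day 21. The soy group (5 arrays) had soy protein isolate as the protein of its AIN-93G diet, a purified diet for rodents, and the casein group (5 arrays) had casein. Both exposures ran from gestation day 4 to weaning. The labels mention RNA pools and replicate cRNA targets, so it is not clear that each array is a separate animal, and the spread behind the p-values may be in part technical. Cdkn1b and Pmepa1 were selected on the difference in their signal between the diets on these arrays, so their diet values are a description without a test. The other members were chosen by gene function with earlier results of these data known.

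Passage through G1 is driven by D-type cyclins, which activate CDK4 and CDK6 and so lead to phosphorylation of the retinoblastoma protein. The CDK inhibitors p27 (Cdkn1b) and p21 (Cdkn1a) bind cyclin and CDK complexes and hold cells in G1. The transcription factor p53 induces Cdkn1a, Ccng1, Gadd45a and Btg2 after DNA damage. TGF-beta halts epithelial proliferation and also induces Pmepa1, which in turn limits Smad signalling. In mice, cyclin D1 is needed for the full growth of mammary alveoli in pregnancy, and Bcl-xL, the main product of Bcl2l1, protects mammary epithelium from death in involution.

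Of the promoter windows that follow, those of Cdkn1a and Ccng1 are shown because both genes were high on overlapping sets of arrays. Gadd45a is added as the third p53-responsive member measured. Cdkn1b and Pmepa1 are shown as the members picked for their difference between the diets. Each window is RefSeq sequence of build GRCr8, 250 bases before to 50 after a transcription start. Windows were found for 7 members, with 4 start sites for Bcl2l1, and not for Ccnd1. The positions are chr20:7150682-7150981 on the plus strand for Cdkn1a, chr10:25684827-25685126 on the minus strand for Ccng1, chr4:97486750-97487049 on the minus strand for Gadd45a, chr4:169491254-169491553 on the plus strand for Cdkn1b and chr3:182478600-182478899 on the minus strand for Pmepa1. Capitals mark the p53 half-site in the first 3 sequences, the CCAAT box in Cdkn1b and the Smad box (CAGAC) in Pmepa1, each searched on both strands.
Cdkn1a: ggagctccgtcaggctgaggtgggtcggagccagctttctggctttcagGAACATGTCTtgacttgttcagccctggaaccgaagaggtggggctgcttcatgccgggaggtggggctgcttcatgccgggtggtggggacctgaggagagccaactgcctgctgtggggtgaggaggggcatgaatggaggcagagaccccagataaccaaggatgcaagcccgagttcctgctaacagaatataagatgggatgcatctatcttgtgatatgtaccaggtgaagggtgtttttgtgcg
Ccng1: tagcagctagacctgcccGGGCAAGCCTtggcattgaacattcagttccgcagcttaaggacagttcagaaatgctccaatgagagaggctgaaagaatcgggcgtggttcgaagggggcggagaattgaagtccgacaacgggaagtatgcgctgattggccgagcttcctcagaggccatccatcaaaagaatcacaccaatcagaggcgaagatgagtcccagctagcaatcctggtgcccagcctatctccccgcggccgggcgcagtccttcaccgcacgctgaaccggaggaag
Gadd45a: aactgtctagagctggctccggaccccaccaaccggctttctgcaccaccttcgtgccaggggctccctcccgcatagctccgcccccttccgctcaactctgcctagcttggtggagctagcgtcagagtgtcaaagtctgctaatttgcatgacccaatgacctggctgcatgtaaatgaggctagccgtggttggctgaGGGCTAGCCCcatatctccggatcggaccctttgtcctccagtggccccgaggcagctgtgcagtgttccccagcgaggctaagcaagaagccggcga
Cdkn1b: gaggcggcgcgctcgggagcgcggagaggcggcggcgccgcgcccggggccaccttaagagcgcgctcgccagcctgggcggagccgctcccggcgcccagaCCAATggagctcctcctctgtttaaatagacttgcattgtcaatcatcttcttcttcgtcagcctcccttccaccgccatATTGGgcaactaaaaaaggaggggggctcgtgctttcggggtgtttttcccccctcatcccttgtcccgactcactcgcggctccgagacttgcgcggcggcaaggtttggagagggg
Pmepa1: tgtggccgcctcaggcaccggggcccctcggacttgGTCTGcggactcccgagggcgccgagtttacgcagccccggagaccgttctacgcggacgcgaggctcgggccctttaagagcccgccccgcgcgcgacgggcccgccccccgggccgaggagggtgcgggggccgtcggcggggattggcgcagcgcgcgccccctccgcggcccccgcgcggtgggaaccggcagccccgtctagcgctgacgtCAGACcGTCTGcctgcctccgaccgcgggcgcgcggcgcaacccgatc

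The p53 half-site had 1 match in each of Cdkn1a, Ccng1 and Gadd45a and none in the windows of the other 4 members, while 7.98% of all 33469 rat promoter windows held a match. The matches were GAACATGTCT at -201 in Cdkn1a, GGGCAAGCCT at -232 in Ccng1 and GGGCTAGCCC at -48 in Gadd45a, counted from the start site. By window, the p53 half-site was found in 3 of 10 member windows, the CCAAT box in 7 of 10, against 37.5% of all windows, and the Smad box in 5 of 10, against 50.1%. Pmepa1 had 3 Smad boxes, of which 2 lay just after the start site, at 3 and 9. A Smad box in Cdkn1b shares 1 base with its first CCAAT box. These matches are letters in a window and do not show that a factor is bound.

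Among the 9520 probe sets bright enough to be tested, 0 (0%) passed an adjusted p of 0.05 between soy and casein in limma, and 433 (4.55%) had an unadjusted p under 0.05. Bright enough means a log2 signal of at least 7.47, a linear signal of 177, on average over the 10 arrays. Of the 13 member probe sets, 9 passed this filter, for all 7 genes measured. The other 4, of Cdkn1b, Cdkn1a and Bcl2l1, were dimmer. No member was therefore called, and the values below are given with their error and interval. In bulk tissue, fewer cells of a type and less RNA per cell cannot be told apart.

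The tissue varied between arrays. The gland's own markers were measured on every array. The mean log2 signal of 11 adipocyte genes was 11.1 to 12.2 in soy and 11.4 to 11.8 in casein, that of 7 luminal epithelial genes 7.04 to 9.82 in soy and 6.73 to 10.7 in casein, and that of 7 basal genes 8.69 to 10.4 in soy and 8.51 to 10.5 in casein. Skeletal muscle genes (15 tested of 20 listed) summed to signals of 3332 to 188658 in soy and 3636 to 164965 in casein, with the 4 highest sums in soy 157, casein 6, soy 149 and soy 147. Lymphocyte genes (12 tested of 20 listed) summed to 3256 to 26979 in soy and 4464 to 21722 in casein, lowest in soy 149 and casein 6. No tested marker of these lists was at 0 on any array. Nerve genes averaged 9.84 to 10.9 in soy and 9.63 to 9.95 in casein, proliferation genes 8.29 to 9.01 in soy and 8.59 to 9.23 in casein, and immediate early genes 9.29 to 9.81 in soy and 9.22 to 9.73 in casein, all as mean log2 signal. The median of the mean muscle log2 signal was 11.96 in soy and 6.89 in casein. Tested genes higher in soy were 14 of 15 for muscle, 7 of 7 for nerve, 8 of 12 for lymphocytes and 7 of 11 for adipocytes. They were 4 of 11 for immediate early genes, 2 of 7 for luminal, 3 of 18 for proliferation and 1 of 7 for basal genes, against 47.2% of all genes tested.

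**Figure D1:**
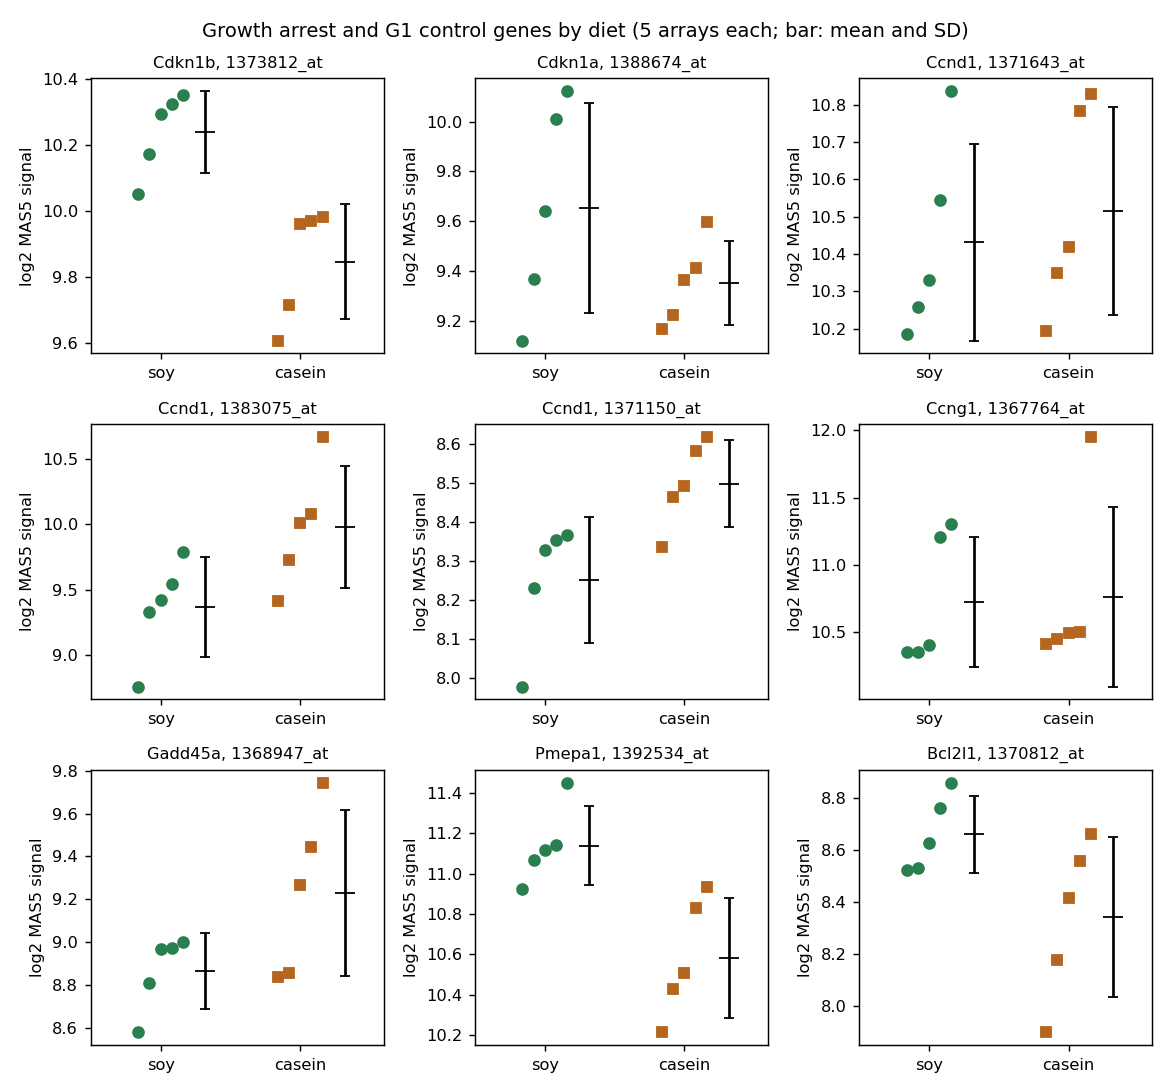
Log2 MAS5 signal of the 9 tested member probe sets on each of 5 soy arrays (circles) and 5 casein arrays (squares), placed from low to high within a diet, with the mean and SD beside them; each panel has its own vertical range. The diets do not overlap for Cdkn1b, Ccng1 has casein 6 far above the other casein arrays, and the other panels overlap.

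Cdkn1b encodes p27, the CDK inhibitor that accumulates in resting cells. At its brighter probe set, 1373812_at, it had signals of 1256.2, 1061.6, 1307.3, 1155.4 and 1282.0 in soy 147, 149, 155, 157 and 159. In casein 6, 7, 10, 18 and 20 the signals were 1002.4, 995.5, 1011.1, 839.5 and 778.9. Every soy array lay above every casein array, with soy 149 and casein 10 nearest to each other. The mean was 1212.5 ± 102 in soy and 925.5 ± 108 in casein (SD, n = 5 each), a log2 difference of 0.39 or a ratio of 1.31. Cdkn1b was chosen for this separation, which was seen in 0.441% of all tested probe sets with soy higher, and nothing is read from it. The second probe set of the gene, 1369192_at, did not show it. There the signals were 58.1 to 94.1 in soy and 67.9 to 91.7 in casein, below the filter, with a log2 difference of -0.02. The probe sets of Cdkn1b had a Pearson r of -0.53 over the 10 arrays, which is a description because 1369192_at was dim.

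Without 1 array the Cdkn1b difference at 1373812_at ran from 0.33, without casein 20, to 0.44, without soy 149. Leaving out the 4 arrays highest in muscle signal, so that 2 soy and 4 casein arrays remain, it was 0.52. The 2 soy arrays kept, soy 155 and soy 159, had the highest Cdkn1b signals, so nothing is read from this value. With covariates for muscle and lymph node signal the Cdkn1b difference was 0.38. The mean over both probe sets gave 0.19.

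Cdkn1a encodes p21, the inhibitor that p53 induces. At 1388674_at its signals were 798.8, 1114.9, 555.8, 1030.5 and 661.0 in soy 147, 149, 155, 157 and 159. They were 773.7, 679.9, 597.4, 574.1 and 658.0 in casein 6, 7, 10, 18 and 20. The diets overlapped: soy 149 and soy 157 were highest and soy 155 was lowest of all. The mean was 832.2 ± 238 in soy and 656.6 ± 78.4 in casein (SD, n = 5 each). The log2 difference was 0.30 ± 0.18 (SE), with a 95% interval of -0.10 to 0.70, and did not pass in limma (adjusted p = 0.98). The dimmer probe set 1387391_at had signals of 74.9 to 254.7 in soy and 96.4 to 205.8 in casein, highest in soy 147, and a log2 difference of -0.13. The probe sets of Cdkn1a shared almost no pattern (Pearson r of 0.062 over 10 arrays), and their mean gave a log2 difference of 0.084.

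The 4 highest arrays for Cdkn1a at 1388674_at were those with the highest muscle signal, 3 of soy and 1 of casein. The same 4 arrays were highest in nerve and Schwann cell genes. Of the tested genes 7 of 7 for nerve and 14 of 15 for muscle were higher in soy, against 47.2% of all genes tested. The mean log2 signal of the nerve and Schwann cell genes was 10.2 to 10.9 on the 3 soy arrays and 9.953 in casein 6, against 9.63 to 9.93 on the other 6 arrays. The parts of muscle and nerve in the Cdkn1a difference were not tested apart. Without these 4 arrays, so that 2 soy and 4 casein arrays remain, the log2 difference was -0.05. Leaving out the highest Cdkn1a arrays, 3 of them soy, lowers the difference in any case, so nothing is read from this value. With the muscle signal as a covariate the log2 difference was 0.10. Without 1 array it ran from 0.18, without soy 149, the array with the highest Cdkn1a signal, to 0.43, without soy 155, the lowest. With the beta-actin ratio (3' over 5' probe set) in the model it was 0.43.

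Ccng1 encodes cyclin G1, an atypical cyclin that p53 induces and that binds subunits of protein phosphatase 2A. Its single probe set, 1367764_at, had signals of 1309.7, 2367.5, 1357.1, 2522.8 and 1307.8 in soy 147, 149, 155, 157 and 159. The signals were 3962.1, 1364.4, 1400.8, 1441.1 and 1450.1 in casein 6, 7, 10, 18 and 20. There were thus 3 high arrays, casein 6, soy 157 and soy 149, and the other 7 lay between 1307.8 and 1450.1, 3 of soy and 4 of casein. The log2 difference between the diets was -0.04 ± 0.31 (SE, n = 5 per diet), with an interval of -0.72 to 0.65, and did not pass (limma adjusted p = 0.999). Without casein 6 it was 0.26. The 3 high arrays were also the 3 with the highest muscle signal, at 12.9 to 13.3 as mean log2. Soy 147, next in muscle signal at 11.96, was at 1309.7 for Ccng1, among the lowest. With the muscle signal as a covariate the difference was -0.42 and did not pass either.

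**Figure D2:**
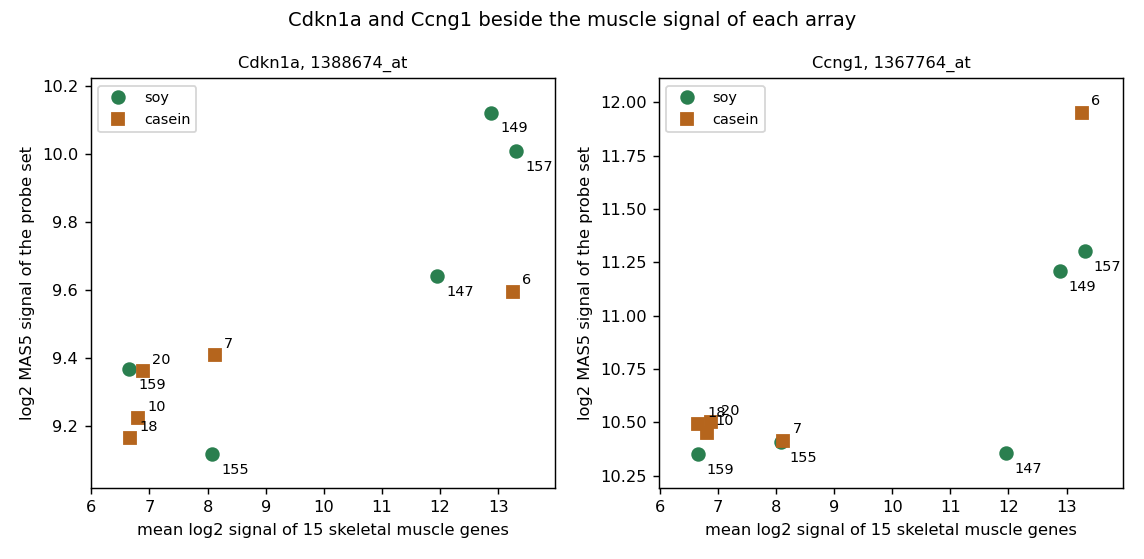
Log2 MAS5 signal of Cdkn1a (1388674_at) and Ccng1 (1367764_at) against the mean log2 signal of 15 skeletal muscle genes on each array, with soy as circles and casein as squares, numbered by replicate. Cdkn1a was highest on the 4 arrays at the right, whereas Ccng1 was high on 3 of them and 1309.7 in soy 147.

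Gadd45a encodes a stress sensor that binds PCNA and p21. At 1368947_at the signals were 382.3, 502.1, 501.2, 449.2 and 512.9 in soy 147, 149, 155, 157 and 159. They were 615.7, 457.0, 464.0, 858.2 and 695.5 in casein 6, 7, 10, 18 and 20. All 5 soy arrays lay below casein 6, casein 18 and casein 20, while casein 7 and casein 10 lay within the soy range. The mean was 469.5 ± 54.7 in soy and 618.1 ± 168 in casein (SD, n = 5 each). The log2 difference was -0.36 ± 0.18 (SE), with an interval of -0.75 to 0.02, and did not pass (limma adjusted p = 0.98). Without 1 array it ran from -0.46, without casein 7, to -0.23, without casein 18, the highest array. With the beta-actin ratio in the model it was -0.61 ± 0.14 (SE; limma, unadjusted p = 0.0017, adjusted p = 0.93), against an unadjusted p of 0.061 without that ratio. The actin ratio itself, an RNA quality measure given as a log2 difference of signals, was 0.498 to 0.648 in soy and 0.291 to 0.628 in casein.

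Ccnd1 encodes cyclin D1, the G1 cyclin that partners CDK4 and CDK6, and was measured by 3 probe sets that were all bright enough to be tested. At 1383075_at the signals were 685.8, 644.4, 747.1, 883.2 and 433.5 in soy 147, 149, 155, 157 and 159. They were 680.8, 1081.8, 1030.6, 1628.4 and 846.5 in casein 6, 7, 10, 18 and 20. Most soy arrays lay below most casein arrays, with casein 6 inside the soy range and soy 157 above casein 20. The log2 difference was -0.61 ± 0.23 (SE, n = 5 per diet), with an interval of -1.12 to -0.10, an unadjusted p of 0.024 in limma and an adjusted p of 0.98.

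The other probe sets of Ccnd1 gave smaller differences in the same direction. At 1371150_at the signals were 321.4, 327.3, 300.7, 330.3 and 252.1 in soy 147, 149, 155, 157 and 159, against 323.3, 353.1, 383.4, 360.3 and 393.3 in casein 6, 7, 10, 18 and 20. The overlap was confined to casein 6, which lay below soy 149 and soy 157. The log2 difference there was -0.25 ± 0.11 (SE, n = 5 per diet), with an interval of -0.49 to -0.01 (limma, unadjusted p = 0.045, adjusted p = 0.98). At the brightest probe set, 1371643_at, the signals ran from 1165.9 in soy 159 to 1828.8 in soy 157 and from 1172.6 in casein 6 to 1820.0 in casein 7. The diets covered the same range, with a log2 difference of -0.08 ± 0.16 (SE, n = 5 per diet; limma adjusted p = 0.995) and an interval of -0.43 to 0.26. Without 1 array this difference ran from -0.19, without soy 157, to -0.005, without casein 7. Of the 7 tested probe sets of members not picked for the diet contrast, the 2 with an unadjusted p under 0.05 were of the same gene, against a background of 4.55% of all tested probe sets. Without soy 159 their unadjusted p was 0.063 at 1383075_at and 0.12 at 1371150_at in limma. Without casein 18 it was 0.060 and 0.070 in the same order, so that in both cases 0 of the 7 were left under 0.05. At 1371150_at the unadjusted limma p was also above 0.05 without soy 155 (0.070), casein 7 (0.063), casein 10 (0.095) or casein 20 (0.10). It was 0.11 there with the actin ratio as a covariate and 0.059 with the luminal signal. Other settings lowered the unadjusted p at both probe sets. In limma it was 0.0057 at 1383075_at and 0.029 at 1371150_at without casein 6, and 0.0036 and 0.0064 with array weights. The lowest limma adjusted p of either probe set over all settings was 0.51. The mean over the 3 probe sets gave a log2 difference of -0.31 ± 0.15 (SE, n = 5 per diet; limma, unadjusted p = 0.057, adjusted p = 0.98).

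The luminal signal of the arrays was set beside that of Ccnd1. The mean luminal signal was lowest in casein 6, soy 159, soy 149 and casein 20, at 6.73 to 8.50, and 9.20 to 10.7 on the other 6 arrays. Soy 159 had the lowest signal at all 3 Ccnd1 probe sets, and casein 6 was next lowest at 1371643_at. Basal genes were also lowest in casein 6, soy 159 and soy 149, at mean log2 signals of 8.51 to 9.16, against 9.72 to 10.5 on the other 7 arrays. Proliferation genes were lowest in soy 149 and casein 6, at 8.29 and 8.59, and immediate early genes in casein 6, soy 159 and soy 149, at 9.22 to 9.32. The parts of these signals in the Ccnd1 difference were not tested apart from that of the luminal signal. With the luminal signal as a covariate the log2 differences were -0.52 ± 0.16 (SE) at 1383075_at, -0.23 ± 0.11 (SE) at 1371150_at and -0.03 ± 0.12 (SE) at 1371643_at. The unadjusted limma p was 0.0089, 0.059 and 0.82 in that order, with an adjusted p of 0.86, 0.86 and 0.99. Without the 4 arrays of highest muscle signal the log2 differences were -0.97, -0.43 and -0.37 in the same order, from 2 soy and 4 casein arrays. This cut drops casein 6, the lowest casein array at all 3 probe sets, and keeps soy 159, the lowest soy array. The differences grow in any case, so nothing is read from these values. The probe sets correlated with each other at a Pearson r of 0.41 to 0.75 over the 10 arrays.

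**Figure D3:**
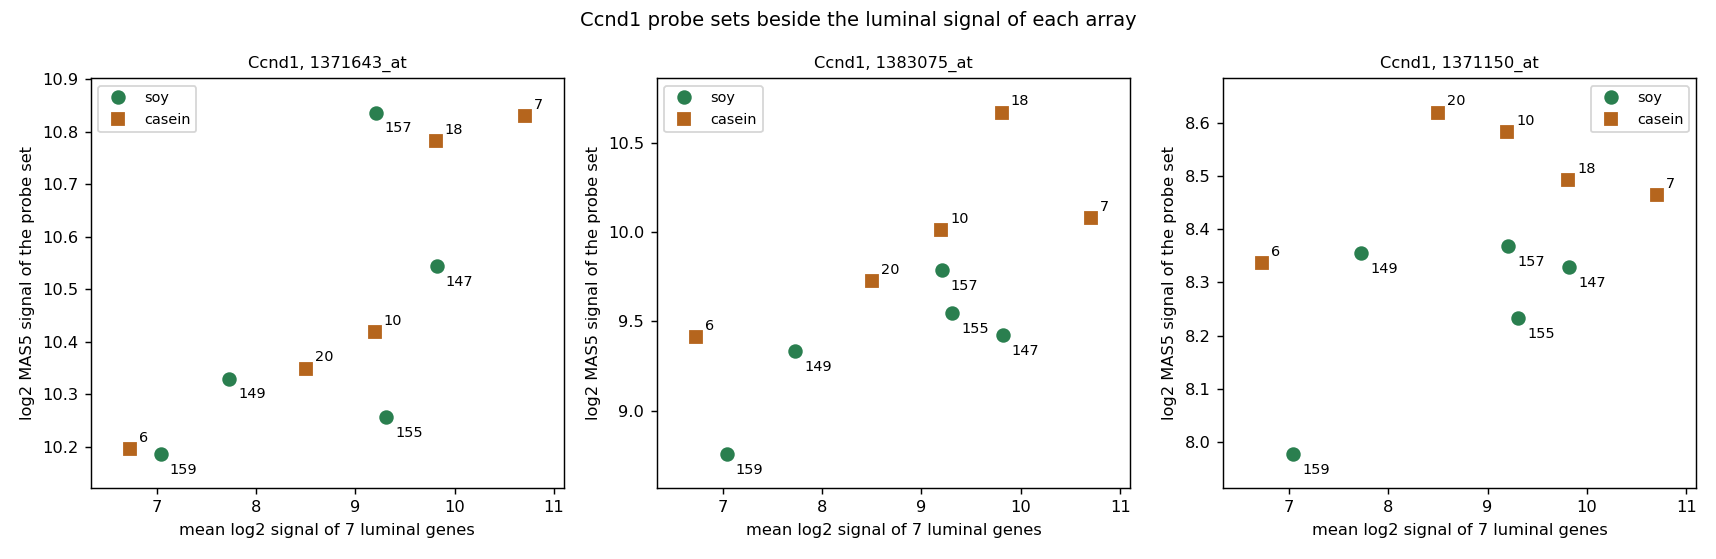
Log2 MAS5 signal of the 3 Ccnd1 probe sets against the mean log2 signal of 7 luminal epithelial genes on each array, with soy as circles and casein as squares, numbered by replicate. Soy 159, with a luminal signal of 7.04, was lowest at each probe set, and at 1383075_at casein 18 stood highest, at 1628.4 on the linear scale.

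Pmepa1 encodes a membrane protein induced by TGF-beta that holds Smad proteins away from the receptor. At its single probe set, 1392534_at, the signals were 1944.2, 2143.9, 2218.9, 2803.6 and 2258.7 in soy 147, 149, 155, 157 and 159. They were 1186.3, 1819.4, 1954.4, 1454.2 and 1378.6 in casein 6, 7, 10, 18 and 20. Only casein 10 reached the soy range, just above soy 147. The mean was 2273.9 ± 320 in soy and 1558.6 ± 319 in casein (SD, n = 5 each), a log2 difference of 0.56 or a ratio of 1.47. Pmepa1 was picked for this contrast, so the difference is a description. It ran from 0.47, without casein 6, to 0.65, without casein 10, and was 0.52 with covariates for muscle and lymph node signal.

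Bcl2l1 encodes the survival protein Bcl-xL and, by another splice form, the death-promoting Bcl-xS. At 1370812_at, its brightest probe set, the signals were 369.3, 464.2, 395.3, 367.5 and 434.3 in soy 147, 149, 155, 157 and 159. They were 341.0, 404.8, 288.9, 238.4 and 376.8 in casein 6, 7, 10, 18 and 20. The casein mean, 330.0, lay under each soy array, and casein 7 and casein 20 lay within the soy range. The log2 difference was 0.32 ± 0.15 (SE, n = 5 per diet), with an interval of -0.01 to 0.65, and did not pass (limma adjusted p = 0.98). Without 1 array it ran from 0.21, without casein 18, the lowest array, to 0.40, without casein 7. Of the dimmer probe sets, 1369180_at ran from 81.3 to 110.3 in soy and from 54.0 to 84.7 in casein, with a log2 difference of 0.39, and 1370485_a_at from 41.8 to 98.2 in soy and from 41.5 to 108.5 in casein, with a log2 difference of -0.02. Which splice forms each probe set reads was not examined here.

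**Figure D4:**
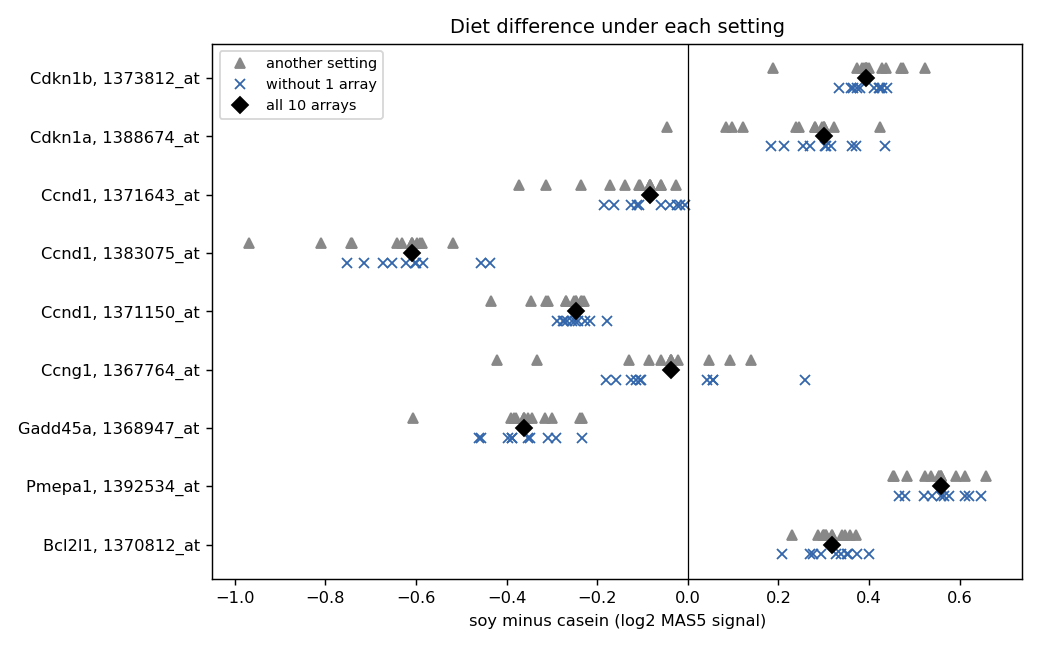
Soy minus casein difference in log2 MAS5 signal for the 9 tested member probe sets, with all 10 arrays (diamonds), without 1 array (crosses) and under other settings (triangles). Bcl2l1 lay above 0 and Gadd45a and the 3 Ccnd1 probe sets below 0 in the settings run, Ccng1 lay on both sides of 0, and Cdkn1a reached -0.05 in 1 setting; Cdkn1b and Pmepa1 were picked for being higher in soy, so nothing is read from their side.

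The genes whose log2 signal over the 10 arrays was most like that of a member were named by Pearson correlation among the tested probe sets. The arrays share diet and tissue content, so the likeness is a description. For Cdkn1b they were Ell2, a factor of RNA polymerase II elongation, the transcription factor Maf and the LIM domain protein Fhl2, at an r of 0.87 to 0.91. For Pmepa1 they were the kinase Cdk18, the IGF binding protein Igfbp3 and Ctla2a, at 0.90 to 0.92. The Igfbp3 signals were 2668.0 to 3767.8 in soy and 1311.0 to 3204.3 in casein, lowest in casein 6 like those of Pmepa1 (Spearman rho of 0.98). For Gadd45a they were Acaca, the acetyl-CoA carboxylase that makes the substrate of fatty acid synthesis, C8h11orf54 and the glycogen branching enzyme Gbe1, at 0.94. Acaca signals were 755.4 to 1530.7 in soy and 1258.1 to 3891.5 in casein, and like Gadd45a it was highest in casein 18 and lowest in soy 147.

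For Cdkn1a the nearest genes were Zfr2, the matrix protein Mgp, an inhibitor of calcification, and Rapgef3, an exchange factor activated by cyclic AMP, at an r of 0.91 to 0.93. For Ccng1 they were Ubac1, Fxr1, an RNA-binding protein, and Gyg1, the glycogenin that primes glycogen synthesis, at 0.97 to 0.98. Their Spearman rho with Ccng1 was lower, at 0.53 to 0.70. Ubac1, for example, was 1417.3 in casein 6, 1041.8 in soy 157 and 867.7 in soy 149, against 512.7 to 617.5 on the other 7 arrays, the same split as for Ccng1. For Ccnd1 at 1371643_at the nearest were Bbx, Ap1m2, a clathrin adaptor subunit of epithelia, and Tead2, a partner of YAP, at 0.88 to 0.89. For Bcl2l1 they were the kinase Pim3, Calcoco1 and Abcf3, at 0.89 to 0.91.

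Other genes of the same pathways showed no diet difference that passed. In all 5 lists that follow 0 genes were called. The background of unadjusted limma p under 0.05 was 309 of 7151 genes, and 4.55% of tested probe sets. Over all 7151 genes tested, each at its brightest probe set, the median log2 difference was -0.01 and 47.2% were higher in soy. Of 15 tested G1 kinases, cyclins and pocket proteins, 7 were higher and 8 lower in soy, with a median of -0.04 and 0 under an unadjusted p of 0.05. The smallest p belonged to Tfdp1, the dimerisation partner of E2F, at -0.24 ± 0.11 (SE), then to E2f4, an E2F of resting cells, at -0.14 ± 0.09 (SE), and Cdk4, the partner of cyclin D1, at -0.18 ± 0.13 (SE), each with a limma adjusted p of 0.98. Cdk4 signals were 1253.2 to 1942.4 in soy and 1622.1 to 2118.3 in casein, and overlapped.

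Of 11 tested CDK inhibitors and genes of p27 turnover, 4 were higher and 7 lower in soy, with a median of -0.04. Cops5, a subunit of the COP9 signalosome that promotes p27 breakdown, was at -0.20 ± 0.13 (SE), with signals of 446.7 to 605.8 in soy and 531.1 to 801.8 in casein. Foxo4, a transcription factor that can induce Cdkn1b, was at 0.17 ± 0.16 (SE), and Cks1b, the cofactor of Skp2 in p27 breakdown, at -0.14 ± 0.13 (SE). Of 22 tested p53 and growth arrest genes, 11 were higher and 11 lower, with a median of -0.004. Tob2, an antiproliferative relative of Btg2, was at 0.24 ± 0.11 (SE; limma, unadjusted p = 0.040, adjusted p = 0.98), with signals of 959.4 to 1282.6 in soy and 790.8 to 1005.3 in casein. Gas6, a ligand of TAM receptors, was at 0.29 ± 0.17 (SE), and Gadd45g, of the Gadd45 family, at 0.32 ± 0.23 (SE), highest in soy 149 at 619.5. The sign thus differed between Gadd45g and Gadd45a, and neither passed.

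Of 23 tested genes of TGF-beta signalling, 13 were higher and 10 lower in soy, with a median of 0.01 and 0 under an unadjusted p of 0.05. The receptors Acvr1 and Tgfbr1 were at -0.20 ± 0.14 (SE) and -0.24 ± 0.18 (SE), and Smurf1, a ubiquitin ligase for Smad proteins, at 0.18 ± 0.14 (SE). Of 11 tested genes of the BCL2 family and of BCL2-binding proteins such as Bnip1 and Bag1, 8 were higher and 3 lower, with a median of 0.05. Bnip1 was at 0.29 ± 0.11 (SE; limma, unadjusted p = 0.025, adjusted p = 0.98), with signals of 399.6 to 502.0 in soy and 313.9 to 412.1 in casein. Bid, a death-promoting member, was at 0.28 ± 0.18 (SE), and Mcl1, a survival protein like Bcl-xL, at -0.23 ± 0.12 (SE), opposite in sign to Bcl2l1.

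**Figure D5:**
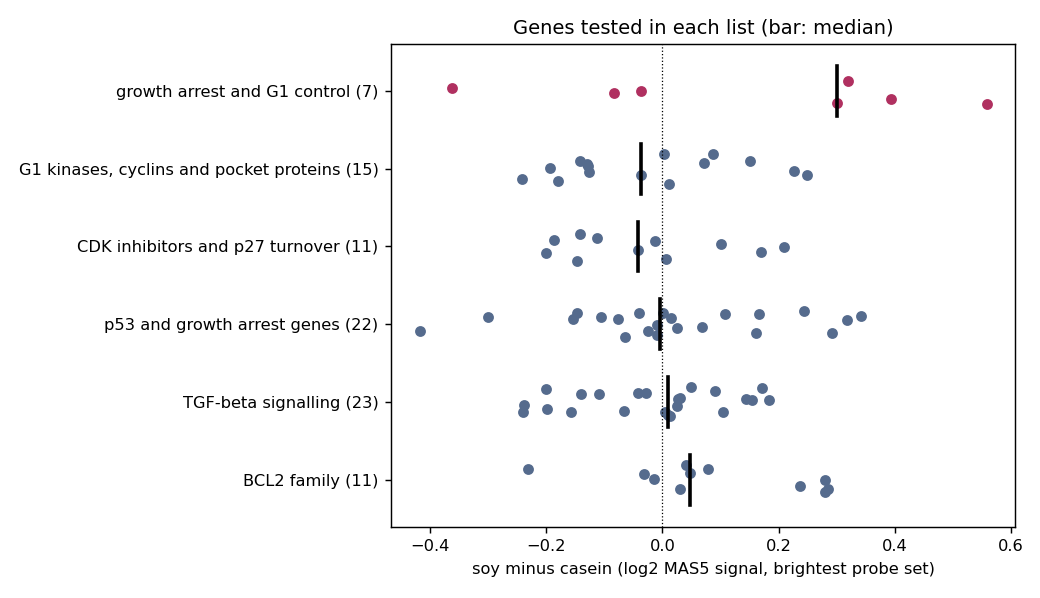
Soy minus casein difference in log2 MAS5 signal of each tested gene at its brightest probe set, by list, with the median as a bar; counts of genes are in parentheses. The medians of the 5 pathway lists lay between -0.04 and 0.05, and the growth arrest and G1 control genes in the top row include Cdkn1b and Pmepa1, which were picked for their difference.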

How the data were processed

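The authors made the deposited intensity values, linear and 1 per probe set, with MAS5, per the submitters' processing notes. No software version or setting is stated there. The 2% trimmed mean was 500.1 on every array, so the deposited scaling was kept. Values under 1 were raised to 1 before taking log2. Of 15923 probe sets, 57 controls were left out, and 12783 of the other 15866 have 1 gene symbol (312 have several and 2771 none). Detection calls were not used here, and a filter at the 40th percentile of mean log2 signal left 9520.

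Soy was compared with casein in limma 3.58.1 (R 4.3.3; lmFit, eBayes with an intensity trend, two-sided, Benjamini-Hochberg over all tested probe sets, threshold 0.05). The precision is limited by the number of arrays; the median SE was 0.144 (log2). Steps were tested on simulated data with 50 known changes of each size. Of these, 50% were recovered at 1.5-fold, 76% at 2-fold, 100% at 4-fold and 96% at 8-fold, with 10 false calls. For lists, the brightest probe set stood for a gene. Genes named are the members, the 3 genes nearest to each by Pearson correlation and the 3 of smallest p in each pathway list. Members and lists were chosen with earlier results of these data known. Promoter sequences are from RefSeq (GRCr8), and motifs were chosen after the values were seen. The alternatives were other normalizations, filters, an offset of 16, variance and array weights, tissue and actin covariates, and arrays left out.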

Additional observations from a re-analysis of the deposited data

Results flagged for a closer look

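Among the 26 groups of 5 arrays (13 member probe sets in each diet), 1 held an array far from the rest. Ccng1 at 1367764_at had a signal of 3962.1 in casein 6, and the gap to the next casein array made up 0.943 of the range of the casein arrays on the log2 scale, above Dixon's limit for 5 arrays. Chance puts about 1 in 20 groups past this limit. Casein 6 was also the second highest array in muscle signal and the second lowest in lymphocyte signal, and the part of either in the Ccng1 value was not tested apart from the fits with these signals as covariates.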

How the results depend on the processing

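In all 23 settings 0 probe sets passed over the whole table in limma, the 7 tested probe sets of members not picked for the contrast included. Of these, 2, without the 4 arrays of highest muscle signal and with the muscle signal alone as a covariate, were chosen after seeing the data. The Cdkn1a difference at 1388674_at turned to -0.046 without those 4 arrays, which were also the 4 highest for Cdkn1a, 3 of them soy. The Ccng1 difference turned to 0.046 with array weights, 0.094 with the actin ratio as a covariate and 0.14 without casein 6 and soy 149, and ran from -0.18, without soy 157, to 0.26, without casein 6, when 1 array was left out. The Cdkn1b difference was 0.19 as the mean over its probe sets, of which the dim one was at -0.02 and the other at 0.39. As the mean over a gene's probe sets the difference was 0.084 for Cdkn1a, against 0.30 at 1388674_at, and -0.31 for Ccnd1, against -0.08 at 1371643_at. The differences of Gadd45a, Bcl2l1 at 1370812_at and the 3 Ccnd1 probe sets kept their sign in the settings run. The filter at the 60th percentile left out Bcl2l1 at 1370812_at and Ccnd1 at 1371150_at. Quantile normalization and median centring moved the median of all probe sets to -0.01 and -0.03, against -0.01. No paired analysis was possible because the soy and casein arrays share no replicate number. Dim probe sets could not be set against background.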
